A study of Mus musculus with 6 samples.

Results

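The metallothioneins and the zinc transporters of the hepatocyte form a small metal-handling group, described here in primary hepatocytes with and without the succinate receptor gene *Sucnr1*. The group was taken by gene name from the deposited count table and holds 8 genes of the 25184 in the table. They are the metallothioneins *Mt1* and *Mt2*, the zinc sensor *Mtf1*, the importers *Slc39a14* (ZIP14), *Slc39a8* (ZIP8) and *Slc39a4* (ZIP4), and the exporters *Slc30a1* (ZnT1) and *Slc30a10* (ZnT10). All 8 of the 8 listed genes were found, and all 8 had enough reads to be tested.

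Metallothioneins are small cysteine-rich proteins that bind zinc and copper and buffer free zinc in the cell. MTF1 is a zinc-finger transcription factor that binds metal response elements when cytosolic zinc is high, and the metallothionein genes and *Slc30a1* are among its best-known targets. ZIP proteins carry zinc into the cytosol, ZnT proteins carry it out of the cytosol, and in liver the metallothioneins and *Slc39a14* are also known to respond to interleukin 6 during the acute phase response, as the metallothioneins do to glucocorticoids.

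Hepatocytes were isolated from chow-fed mice by enzymatic digestion and a density gradient. They were kept overnight on collagen in a medium with serum and added glucose, and sequenced as stranded poly(A) RNA, with 3 libraries per genotype. Control mice (*Sucnr1* fl/fl) carried floxed alleles of *Sucnr1* and no Cre. Hep-*Sucnr1* KO mice carried the same floxed alleles together with Cre recombinase under the albumin promoter, so the floxed alleles were shared by both groups and Cre by the KO group alone. The study's methods give a C57BL6J background for the Cre parent line and name none for the floxed line. The study describes the albumin promoter as specific to hepatocytes, and whether each other liver cell type keeps the floxed gene was not tested here. The age of the mice used for these libraries is not given in the sources used here. RNA of 1 library per genotype was extracted on day 1 (*Sucnr1* fl/fl replicate 1 and Hep-*Sucnr1* KO replicate 3) and of 2 libraries per genotype on day 2 (*Sucnr1* fl/fl replicates 2 and 3, Hep-*Sucnr1* KO replicates 4 and 5).

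The promoters of *Mt1*, *Mt2* and *Slc30a1* are shown because these 3 genes are the classical targets of the zinc sensor and because the relation between their levels is examined later. Each sequence runs from 250 bases before to 30 bases after the first transcribed base in RefSeq (GRCm38.p6), on the plus strand, so that the last 30 bases lie in the first exon. RefSeq start sites differ by some bases from the gene starts in the annotation used for the positions given further on. Capitals mark the core of the metal response element, searched on both strands as TGCACNC and TGCGCNC, and overlapping matches were counted once.
Mt1 promoter, chr8:94178839-94179118, plus strand: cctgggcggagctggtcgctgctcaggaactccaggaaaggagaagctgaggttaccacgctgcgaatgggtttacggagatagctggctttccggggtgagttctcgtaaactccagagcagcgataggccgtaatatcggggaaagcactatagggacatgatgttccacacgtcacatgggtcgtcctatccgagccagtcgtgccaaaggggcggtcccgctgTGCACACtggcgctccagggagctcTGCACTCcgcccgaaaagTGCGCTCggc
Mt2 promoter, chr8:94172368-94172647, plus strand: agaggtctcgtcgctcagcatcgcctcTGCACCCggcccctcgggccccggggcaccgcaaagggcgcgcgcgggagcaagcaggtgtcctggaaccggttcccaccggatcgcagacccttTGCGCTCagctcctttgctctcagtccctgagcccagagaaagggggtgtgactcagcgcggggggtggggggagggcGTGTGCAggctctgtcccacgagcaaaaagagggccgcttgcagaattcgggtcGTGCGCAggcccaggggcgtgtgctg
Slc30a1 promoter, chr1:191906531-191906810, plus strand: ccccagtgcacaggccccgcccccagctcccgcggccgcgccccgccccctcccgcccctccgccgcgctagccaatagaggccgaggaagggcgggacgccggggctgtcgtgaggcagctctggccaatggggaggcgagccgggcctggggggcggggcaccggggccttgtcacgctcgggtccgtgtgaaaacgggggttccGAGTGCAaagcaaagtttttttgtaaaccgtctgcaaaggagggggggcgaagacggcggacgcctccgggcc

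The *Mt1* window held 3 such matches and the *Mt2* window 4, and *Slc30a1* held 1. Of 32807 promoter windows of the same length, 24.1% held at least 1 match, 1.12% at least 3 and 0.226% at least 4. Counted from the RefSeq start, the nearest match lay at positions 3 to 9 after it in *Mt1* and 5 to 11 on the opposite strand in *Mt2*. In *Slc30a1* the only match lay at positions −43 to −37 on the opposite strand. Which start these cells used was not tested. Matches outside the windows, as before a start further downstream, were not counted. *Slc30a10* held 2 matches, *Mtf1* held 0, and *Slc39a8*, which has 2 RefSeq starts, held 0 in one window and 1 in the other. A STAT palindrome (TTCNNNGAA), which 7.83% of all windows held, was found in none of the windows of these 6 genes. The core of the antioxidant response element (TGACNNNGC, 11.5% of all windows) was found once each in *Mt2*, *Slc30a1* and *Slc39a8*. A match gives letters in a window and says nothing on whether a factor was bound, and *Slc39a14* and *Slc39a4* had no entry in the promoter table.

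Library totals ranged from 30504248 to 38770694 counts, and the smallest count of any of the 8 genes in any library was 451, for *Slc39a8*. As the check of the genotype, *Sucnr1* was counted 258, 118 and 103 times in control replicates 1, 2 and 3 and 84, 28 and 5 times in KO replicates 3, 4 and 5. Its level was 4.55 ± 1.87 CPM (counts relative to the TMM-scaled library total; SD, n = 3) in controls and 1.21 ± 1.30 CPM in KO libraries, with a log2 fold change of −2.23 (SE 0.54, edgeR p = 0.00444, adjusted p = 0.998; exact permutation p = 0.1, where 3 libraries against 3 cannot go below 0.1). DESeq2 gave −2.31 with an adjusted p = 0.0328, below the threshold. The groups did not overlap, and Hep-*Sucnr1* KO replicate 3, the day 1 library, kept the highest level of the KO group. These counts cover the whole gene and not the floxed part alone. All 8 hepatocyte markers were abundant (summed 71223 to 93212 CPM in controls, 63323 to 94580 in KO). Summed markers of Kupffer cells ranged from 28.5 to 104 CPM in controls and from 5.92 to 89.0 CPM in KO, those of sinusoidal endothelial cells from 53.9 to 91.2 and from 33.2 to 63.1, and those of stellate cells, 5 of 8 of which were below 1 CPM, from 8.67 to 26.5 and from 6.94 to 10.8. No marker was at 0 in all libraries. In such bulk samples, fewer cells of a type and less RNA per cell cannot be told apart.

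Metallothioneins were by far the most abundant of these transcripts, which differed in level by almost 3 orders of magnitude. Per kilobase of the principal transcript, *Mt2* stood at 3120 ± 492 CPM (SD, n = 6 libraries) and *Mt1* at 2776 ± 458 CPM. *Slc39a14* followed with 79.1 ± 17.4 CPM per kb, *Slc30a1* with 34.8 ± 5.55 and *Slc39a4* with 22.7 ± 6.88. The least abundant were *Slc39a8* with 4.35 ± 0.440, *Mtf1* with 3.42 ± 0.563 and *Slc30a10* with 3.21 ± 0.728 CPM per kb. In this order the ranges over the 6 libraries overlapped between *Mt2* and *Mt1*, between *Slc30a1* and *Slc39a4*, between *Slc39a8* and *Mtf1* and between *Mtf1* and *Slc30a10*, and they did not overlap between the other neighbours. *Slc39a14* was thus the most abundant of the 5 transporters per length, and *Slc30a1* the more abundant of the 2 exporters. The pair *Mt1* and *Mt2* took 0.245% to 0.366% of all counts, and *Mt1* stood between rank 79 and rank 106 among all genes by count.

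**Figure D1:**
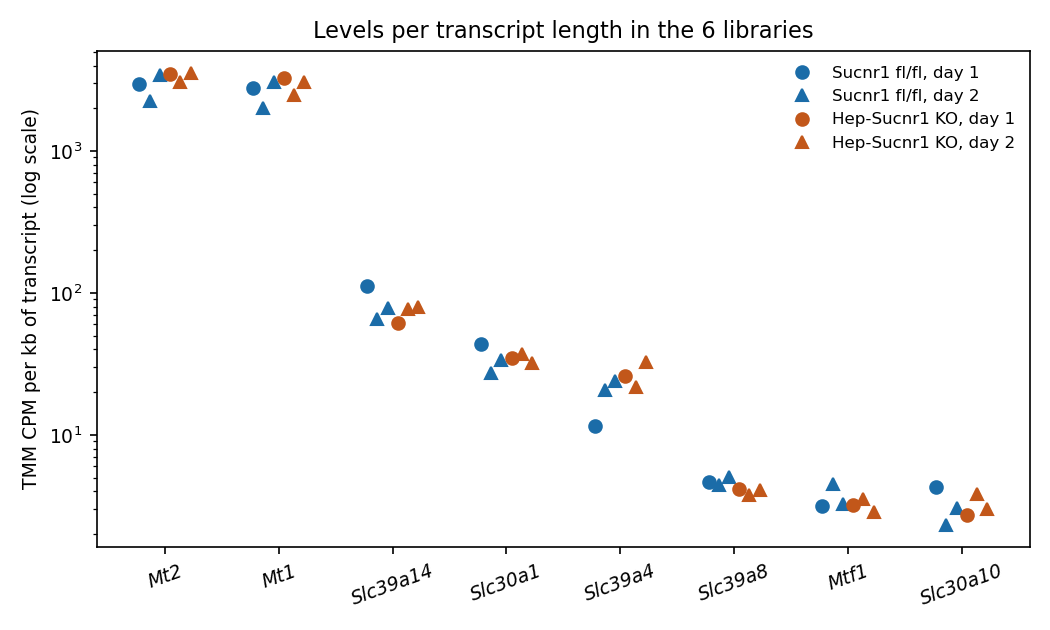
Level of each of the 8 genes in each library, in TMM CPM per kilobase of principal transcript on a log axis, ordered by mean, with colour for genotype and shape for extraction day. The 2 metallothioneins lie between 2013 and 3526 CPM per kb, *Slc39a14* between 61.7 and 111, and *Slc39a8*, *Mtf1* and *Slc30a10* between 2.33 and 5.01.

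None of the 8 genes passed an adjusted p of 0.05 between genotypes. With edgeR's quasi-likelihood test and extraction day in the model, 0 of 8 passed, as did 0 of all 15105 genes tested (0%), and with DESeq2 0 of 8 passed, against 7 of 11005 genes with an adjusted p (0.0636%). One of the 8 genes, *Slc39a4*, had an unadjusted p below 0.05 in edgeR, as did 3.73% of all genes (1.91% with the KO higher and 1.81% with the KO lower), and the same gene was the only one in DESeq2, against 2.88% of all genes. The fitted log2 fold change was above 0 for 5 genes (*Mt1*, *Mt2*, *Slc39a4*, *Slc30a1* and *Slc30a10*) and below 0 for 3, with a median of 0.011 beside 0.0030 over all genes tested, of which 50.5% lay above 0 and 49.5% below. For 1 of the 8 genes, *Slc39a8*, the ranges of the 2 genotypes did not overlap, against 10.6% of all genes tested (6.54% with the KO higher and 4.04% with the KO lower).

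**Figure D2:**
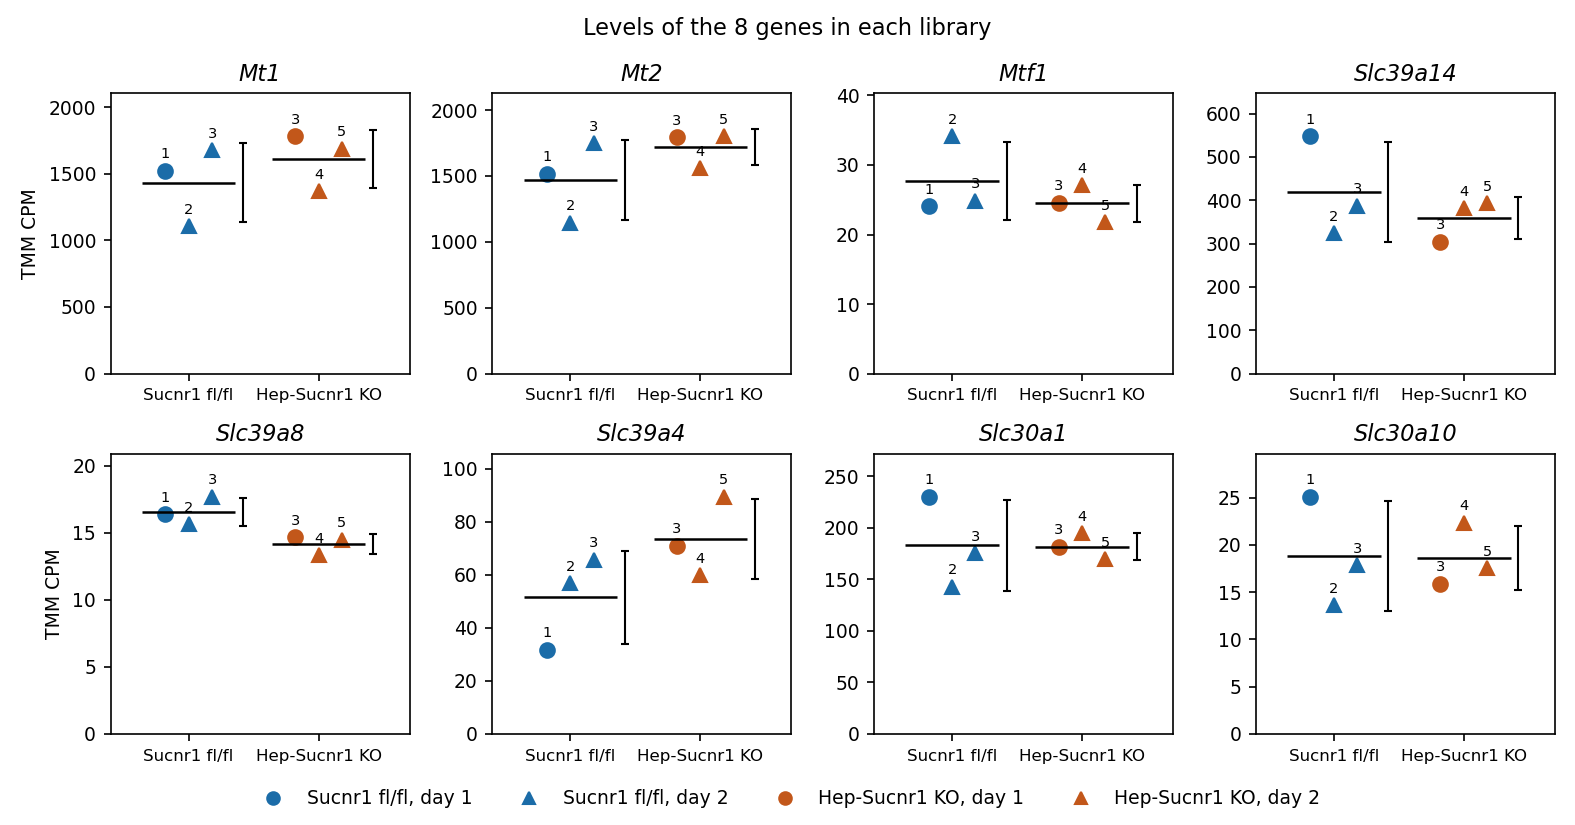
TMM CPM of each gene in each library, by genotype, with replicate numbers beside the points, circles for extraction day 1 and triangles for day 2. Horizontal lines are the means and bars the SD over 3 libraries. The genotypes overlap for 7 of the 8 genes, the exception being *Slc39a8*, and *Sucnr1* fl/fl replicate 1 is the highest library for *Slc39a14*, *Slc30a1* and *Slc30a10* and the lowest for *Slc39a4*.

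*Mt1* (ENSMUSG00000031765, chr8:94179082-94180327, plus strand) had 1523, 1105 and 1676 CPM in control replicates 1, 2 and 3 and 1783, 1369 and 1688 CPM in KO replicates 3, 4 and 5. The lowest library was a control and the highest a KO library, and the groups overlapped. The means were 1435 ± 296 CPM in controls and 1613 ± 217 CPM in KO (SD, n = 3), with a log2 fold change of 0.17 (SE 0.20, edgeR p = 0.432, adjusted p = 0.998; exact permutation p = 0.5). The 95% interval ran from −0.31 to 0.64, that is from 0.81 to 1.56-fold.

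The neighbouring gene *Mt2* (ENSMUSG00000031762, chr8:94172664-94173568, plus strand) ends 5513 bases before *Mt1* starts. Its levels were 1518, 1144 and 1748 CPM in control replicates 1, 2 and 3 and 1793, 1560 and 1802 CPM in KO replicates 3, 4 and 5. As for *Mt1*, control replicate 2 was the lowest library, and control replicate 3 lay inside the range of the KO group. *Mt2* averaged 1470 ± 305 CPM in controls and 1718 ± 137 CPM in KO, a log2 difference of 0.23 (SE 0.19, 95% interval −0.24 to 0.69, edgeR p = 0.287, adjusted p = 0.998; exact permutation p = 0.2). Within day 1 the log2 ratio of KO to control was 0.23 for *Mt1* and 0.24 for *Mt2*, and within day 2 it was 0.14 and 0.22. With a library left out the log2 fold change lay between 0.02 (without control replicate 2) and 0.36 (without control replicate 3) for *Mt1*, and between 0.07 and 0.42 for *Mt2* with the same libraries omitted.

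The principal transcripts of *Mt1* and *Mt2* aligned over 478 bases with 365 identical (76.4%), and the longest run they shared was 20 bases. The ratio of *Mt2* to *Mt1* counts was 0.997, 1.03 and 1.04 in controls and 1.01, 1.14 and 1.07 in KO (exact permutation p = 0.4, adjusted over 4 ratios p = 0.667). Across the 6 libraries log2 CPM of both genes moved together, with Pearson's r = 0.962 (exact permutation p = 0.0125, adjusted over 3 relations p = 0.0375) and Spearman's rho = 0.886 (exact permutation p = 0.0333, adjusted p = 0.1). Without the 2 libraries farthest from the median of *Mt1* (control replicate 2 and KO replicate 4), r was 0.927 over 4 libraries, and with each library centred on the mean of its extraction day it was 0.980. Day 1 held 2 libraries and day 2 held 4, and no correlation was computed within a single day. How reads that match several genes were counted is not stated, and the part of shared reads in this relation was not tested.

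Of the other metallothioneins, *Mt3* had 2 counts in all, both in KO replicate 3, and *Mt4* lay between 0.0602 and 0.348 CPM, which gives no usable comparison.

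*Mtf1* (ENSMUSG00000028890, chr4:124802104-124849800, plus strand), the sensor itself, had 24.1, 34.1 and 24.8 CPM in control replicates 1, 2 and 3 and 24.6, 27.1 and 21.8 CPM in KO replicates 3, 4 and 5. Control replicate 2, the library with the lowest metallothionein levels, had the highest *Mtf1* level, and the other 5 libraries lay between 21.8 and 27.1 CPM. Its mean was 27.7 ± 5.60 CPM in controls and 24.5 ± 2.66 CPM in KO, with a log2 fold change of −0.17 (SE 0.17, 95% interval −0.57 to 0.22, edgeR p = 0.335, adjusted p = 0.998; exact permutation p = 0.5). Without control replicate 2 the value was −0.0018.

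Among the importers, *Slc39a14* (ENSMUSG00000022094, chr14:70303469-70351425, minus strand), which carries zinc, iron and manganese into hepatocytes, had 548, 324 and 387 CPM in control replicates 1, 2 and 3 and 304, 382 and 393 CPM in KO replicates 3, 4 and 5. Control replicate 1 stood above every other library, and the other 5 lay between 304 and 393 CPM with the genotypes interleaved. The means were 420 ± 115 CPM in controls and 360 ± 48.5 CPM in KO, a log2 difference of −0.20 (SE 0.22, 95% interval −0.72 to 0.32, edgeR p = 0.400, adjusted p = 0.998; exact permutation p = 0.5). Without control replicate 1 the log2 fold change was 0.12, and without KO replicate 3 it was also 0.12, so the direction rested on the day 1 pair. The log2 ratio of KO to control was −0.85 within day 1 (1 library each) and 0.12 within day 2.

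*Slc39a8* (ENSMUSG00000053897, chr3:135825279-135888572, plus strand), a plasma membrane importer of manganese and zinc, was the steadiest of the 8 genes. It had 16.4, 15.6 and 17.7 CPM in control replicates 1, 2 and 3 and 14.7, 13.3 and 14.5 CPM in KO replicates 3, 4 and 5. Every KO library lay below every control library, with a gap between 14.7 and 15.6 CPM. Its mean was 16.6 ± 1.05 CPM in controls and 14.2 ± 0.726 CPM in KO, with a log2 fold change of −0.23 (SE 0.12, 95% interval −0.51 to 0.05, edgeR p = 0.0918, adjusted p = 0.998; exact permutation p = 0.1, the smallest possible). The log2 ratio was −0.16 within day 1 and −0.26 within day 2. The difference was thus below 0 on both days and did not pass the test. Summed endothelial and Kupffer cell markers, given above, had their lowest values in KO replicate 3. Kupffer sums in KO replicates 4 and 5 were 89.0 and 65.6 CPM, beside 33.2, 28.5 and 104 CPM in control replicates 1, 2 and 3. All 8 Kupffer markers and 7 of 8 endothelial markers had fitted log2 fold changes below 0 (49.5% of all genes did). Of these markers 0 had an edgeR p below 0.05 (3.73% of all genes). These signs came from the fit with extraction day, whereas in mean CPM some Kupffer markers were lower in KO and others higher. The part of both cell types in the *Slc39a8* values was not tested.

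*Slc39a4* (ENSMUSG00000063354, chr15:76612383-76617384, minus strand), best known as the zinc importer of the intestine, had the widest range of the group. Its levels were 31.8, 56.9 and 65.7 CPM in control replicates 1, 2 and 3 and 70.9, 59.8 and 89.5 CPM in KO replicates 3, 4 and 5, a range of 2.81-fold from lowest to highest. Control replicate 1 was the lowest library and KO replicate 5 the highest, and KO replicate 4 lay below control replicate 3. *Slc39a4* averaged 51.5 ± 17.6 CPM in controls and 73.4 ± 15.0 CPM in KO, a log2 difference of 0.57 (SE 0.23) or 1.49-fold. The 95% interval was 1.02 to 2.17-fold, with edgeR p = 0.0430, adjusted p = 0.998 and exact permutation p = 0.2. DESeq2 gave a log2 fold change of 0.55 with an adjusted p = 1.00. The log2 ratio was 1.16 within day 1 and 0.28 within day 2, and the log2 fold change was 0.28 both without KO replicate 3 and without control replicate 1. Its edgeR p was above 0.05 when control replicate 1, control replicate 2, KO replicate 3 or KO replicate 5 was left out, and it stayed below 0.05 without control replicate 3 (log2 fold change 0.71) and without KO replicate 4 (0.81).

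The exporter *Slc30a1* (ENSMUSG00000037434, chr1:191906767-191913247, plus strand), which moves zinc out across the plasma membrane, had 230, 143 and 176 CPM in control replicates 1, 2 and 3 and 182, 195 and 169 CPM in KO replicates 3, 4 and 5. The controls held both the highest and the lowest library, and the KO libraries lay between them. The means were nearly equal, 183 ± 44.2 CPM in controls and 182 ± 12.7 CPM in KO, and the log2 fold change was 0.015 (SE 0.16, edgeR p = 0.932, adjusted p = 0.998; exact permutation p = 0.9). Its 95% interval still ran from 0.77 to 1.32-fold. Within day 1 the log2 ratio was −0.34 and within day 2 it was 0.19.

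*Slc30a10* (ENSMUSG00000026614, chr1:185454848-185468762, plus strand), known as an exporter of manganese, had 25.1, 13.6 and 17.8 CPM in control replicates 1, 2 and 3 and 15.9, 22.4 and 17.5 CPM in KO replicates 3, 4 and 5. Its pattern resembled that of *Slc30a1*, with control replicate 1 highest, control replicate 2 lowest and KO replicate 4 the highest of its group. The means were 18.9 ± 5.80 CPM in controls and 18.6 ± 3.38 CPM in KO, with a log2 fold change of 0.0082 (SE 0.24, 95% interval −0.56 to 0.58, edgeR p = 0.974, adjusted p = 0.998; exact permutation p = 1). The log2 ratio was −0.66 within day 1 and 0.34 within day 2.

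**Figure D3:**
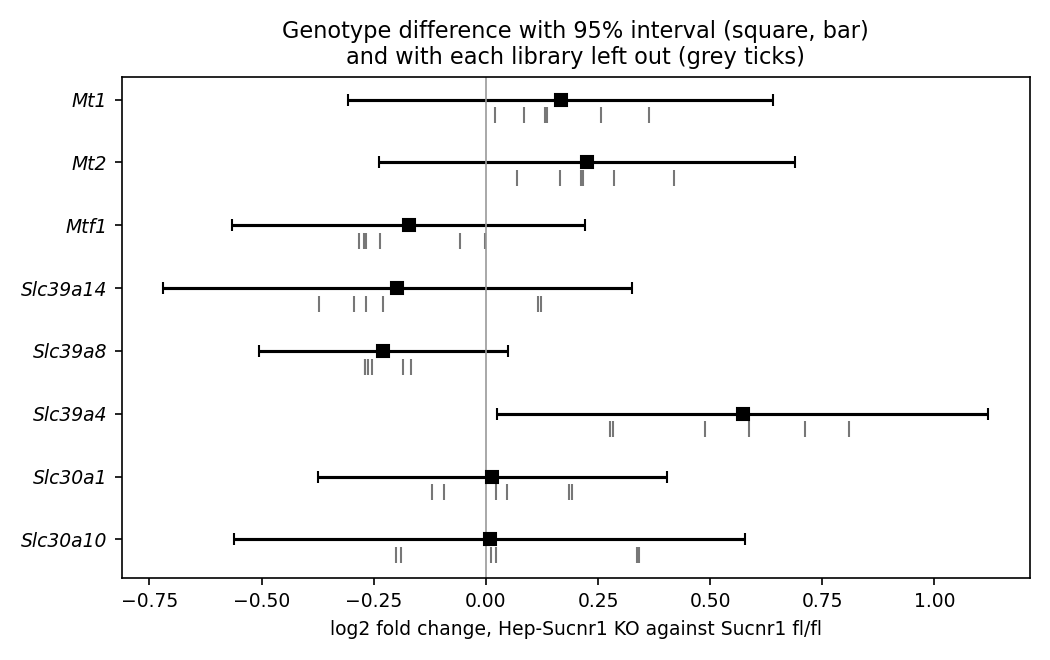
Genotype difference of each gene in edgeR as a log2 fold change, KO over control (squares) with its 95% interval (bars), and the same value with each of the 6 libraries left out (grey ticks). The interval excludes 0 for *Slc39a4* alone, and the ticks lie on both sides of 0 for *Slc39a14*, *Slc30a1* and *Slc30a10*.

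Each extraction day held libraries of both genotypes, and the days differed in the sign of the genotype difference for 4 of the 8 genes, *Mtf1*, *Slc39a14*, *Slc30a1* and *Slc30a10*. The 3 transporters were lower in the KO library on day 1 and higher in the KO libraries on day 2. The day 2 minus day 1 difference of the genotype effect was 0.97 on the log2 scale for *Slc39a14* (SE 0.31, edgeR adjusted p = 1.00), 1.00 for *Slc30a10* (SE 0.36, edgeR adjusted p = 1.00), 0.54 for *Slc30a1* (SE 0.31) and −0.87 for *Slc39a4* (SE 0.39). The term reached an unadjusted p below 0.05 for 2 of 8 genes, *Slc39a14* and *Slc30a10*, beside 3.69% of all genes tested, and an adjusted p below 0.05 by 0 of 8 and by 0% of all genes. Day 1 has 1 library per genotype, so the library and the day cannot be told apart. *Sucnr1* fl/fl replicate 1 was the highest of the 6 libraries for *Slc39a14*, *Slc30a1* and *Slc30a10*, as it was for 18.2% of all genes, and the lowest for *Slc39a4*, as for 20.4% of all genes. It also had the largest total count and the highest summed endothelial and stellate marker levels, whose part in these values was not tested. The effect of day itself passed an unadjusted p of 0.05 for 0 of the 8 genes, beside 7.49% of all genes.

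**Figure D4:**
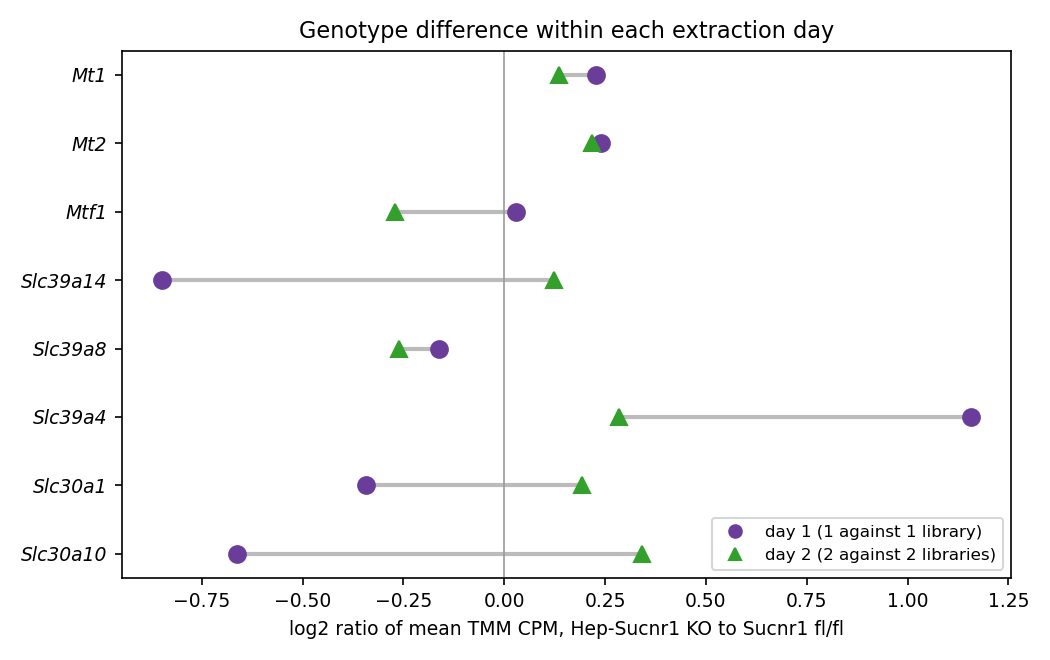
Log2 ratio of mean TMM CPM, Hep-*Sucnr1* KO to *Sucnr1* fl/fl, within extraction day 1 (circles, 1 library against 1) and day 2 (triangles, 2 libraries against 2). *Mt1*, *Mt2*, *Slc39a8* and *Slc39a4* keep their sign, while *Slc39a14* goes from −0.85 to 0.12 and *Slc30a10* from −0.66 to 0.34.

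The levels of *Mt1* were also set against *Slc30a1*, the other classical target of MTF1, and against *Slc39a14*, with which it shares the response to interleukin 6. Neither relation passed the test. For *Slc30a1* Pearson's r was 0.417 (exact permutation p = 0.390, adjusted p = 0.585) and Spearman's rho 0.0857 (exact permutation p = 0.919, adjusted p = 1), and for *Slc39a14* r was 0.119 (exact permutation p = 0.779, adjusted p = 0.779) and rho −0.0286 (exact permutation p = 1, adjusted p = 1). Without the 2 farthest libraries r turned to −0.820 for *Slc30a1* and −0.995 for *Slc39a14* over 4 libraries, so the signs above rested on those libraries, and with each day centred r was 0.242 and 0.0254. The lowest library for *Mt1*, control replicate 2, was also the lowest for *Slc30a1*, and without it alone r was −0.554 for *Slc30a1* and −0.458 for *Slc39a14*. The ratio of *Mt1* to *Slc30a1* counts ranged from 6.61 to 9.97 (exact permutation p = 0.5, adjusted p = 0.667). The ratio of *Slc39a14* to *Slc30a1* counts was 2.38, 2.27 and 2.21 in controls and 1.68, 1.96 and 2.32 in KO (exact permutation p = 0.3, adjusted p = 0.667), and that of *Slc39a14* to *Slc39a8* ranged from 20.7 to 33.4 (exact permutation p = 0.9, adjusted p = 0.9).

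**Figure D5:**
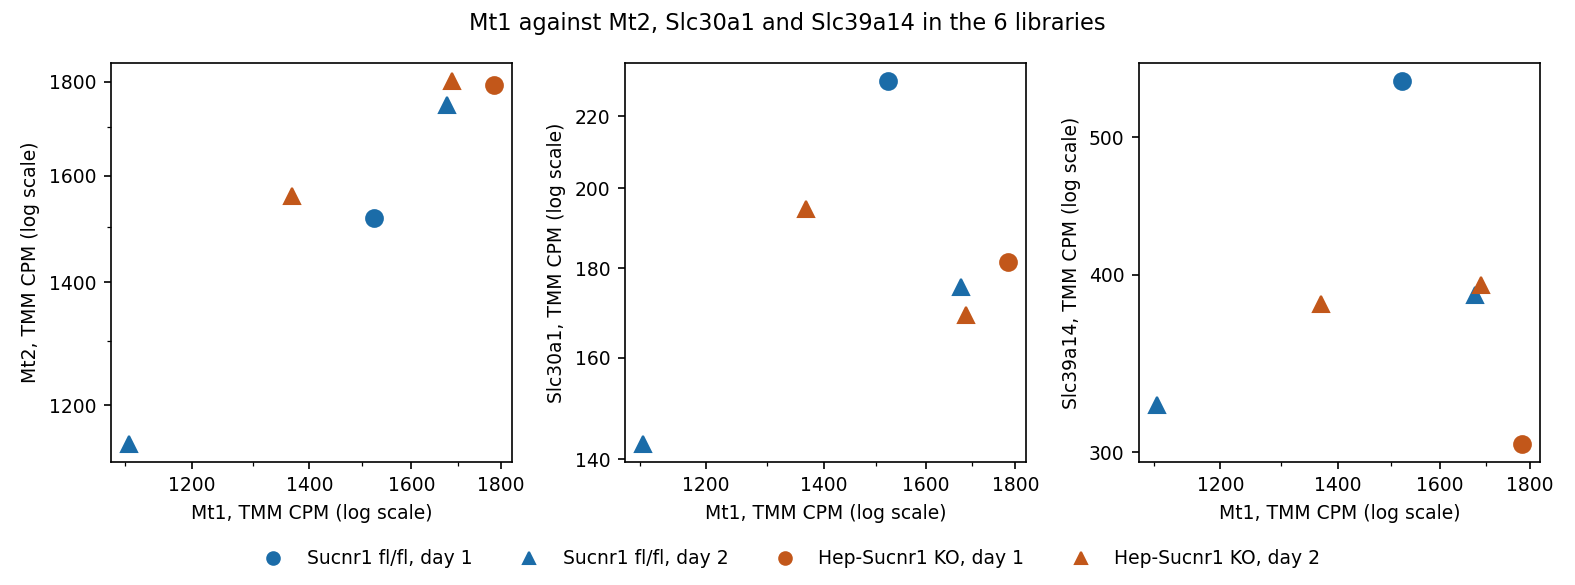
TMM CPM of *Mt2*, *Slc30a1* and *Slc39a14* against *Mt1* in the 6 libraries, both axes on log scales, with colour for genotype and shape for extraction day. *Mt2* follows *Mt1* (r = 0.962), whereas *Slc30a1* (r = 0.417) and *Slc39a14* (r = 0.119) do not show a relation that passed the test.

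By the highest Pearson's r of log2 CPM over the 6 libraries, among 7058 other genes with a mean of at least 10 CPM, the patterns nearest to *Mt1* were those of *Pgk1-rs7* (0.992), *Pgk1* (0.992), *Cdk2ap2* (0.991), *Cox14* (0.988) and *Ube2b* (0.988). *Pgk1* encodes the glycolytic enzyme phosphoglycerate kinase, and *Pgk1-rs7* is a near-identical copy whose reads may be shared with it. The patterns nearest to *Slc39a14* were those of *Hspa4l* (0.982), *Klhl7* (0.978), *Fbxl20* (0.975), *Col18a1* (0.965) and *C1rl* (0.961). With 6 libraries and so many genes, values of this size are a description of likeness only.

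The remaining members of the zinc transporter families gave no call either. Of 19 further *Slc39a* and *Slc30a* genes 16 were tested, 0 had an edgeR p below 0.05 (3.73% of all genes did) and 0 passed the adjusted threshold in edgeR, with 9 fitted log2 fold changes above 0 and 7 below. The groups did not overlap for 1 of the 16, *Slc39a7*, with the KO higher, beside 10.6% of all genes. Of the 11 other ZIP genes *Slc39a1*, a plasma membrane importer, was the most abundant with 132 ± 13.3 CPM in controls and 137 ± 9.07 CPM in KO, and *Slc39a2*, *Slc39a5* and *Slc39a12* were below 1 CPM. The lowest p among them belonged to *Slc39a7* (log2 fold change 0.32, SE 0.26, edgeR adjusted p = 0.998), an importer of the secretory pathway, whose count is uncertain because 80.7% of its exon bases are shared with the overlapping gene *Gm20427* on the same strand. Of the 8 other ZnT genes *Slc30a5*, which loads zinc into the secretory pathway, had the lowest p, with 59.1 ± 6.82 CPM in controls and 50.3 ± 3.96 CPM in KO (log2 fold change −0.23, SE 0.13, edgeR adjusted p = 0.998). The 8 genes described above share no exon base with another gene on the same strand.

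Of the neighbouring metals, the manganese list had 0 of 5 genes at an edgeR p below 0.05 (median log2 fold change −0.042, lowest p for the Golgi pump *Atp2c1*, log2 fold change −0.07, SE 0.11, edgeR adjusted p = 0.998). The copper list had 1 of 9, the copper exporter *Atp7a*, with 9.16 ± 2.00 CPM in controls and 7.06 ± 1.61 CPM in KO (log2 fold change −0.37, SE 0.15, edgeR adjusted p = 0.998), and a median of 0.095. Of 10 zinc-dependent enzymes of hepatocytes 1 had an edgeR p below 0.05, the betaine homocysteine methyltransferase gene *Bhmt*, with 1444 ± 369 CPM in controls and 2157 ± 169 CPM in KO (log2 fold change 0.60, SE 0.20, edgeR adjusted p = 0.998), and the median was 0.12. Both shares stand beside 3.73% of all genes at that threshold. The groups did not overlap for 0 of 5 manganese genes, 2 of 9 copper genes and 1 of 10 zinc-dependent enzymes, *Bhmt*, beside 10.6% of all genes.

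Lists of genes that respond to known inducers of metallothioneins were described in the same way. They were chosen with earlier results of these data known, so their counts are a description only. In the acute phase list 13 of 16 fitted log2 fold changes lay above 0 (50.5% of all genes), with a median of 0.29. The groups did not overlap for 7 of 16 genes, all higher in KO (6.54% of all genes), and 0 genes passed the adjusted threshold. An edgeR p below 0.05 was found for 6 of 16 genes, all higher in KO (1.91% of all genes). These 6 were *Saa1*, *Saa2*, *Hp*, *Orm1*, *Orm2* and *Lbp*, all of them secreted proteins of the acute phase. *Lbp*, the lipopolysaccharide-binding protein gene, had 87.3, 94.0 and 116 CPM in control replicates 1, 2 and 3 and 137, 162 and 173 CPM in KO replicates 3, 4 and 5. Every KO library thus lay above every control library, with means of 99.0 ± 14.9 CPM in controls and 157 ± 18.6 CPM in KO (log2 fold change 0.67, SE 0.12, edgeR adjusted p = 0.998). Members of that list that carry or restrain the interleukin 6 signal had no edgeR p below 0.05. Their log2 fold changes were −0.16 for *Stat3* (SE 0.19, edgeR adjusted p = 0.998), 0.0034 for *Socs3* (SE 0.26, edgeR adjusted p = 0.999), −0.17 for *Il6st* (SE 0.22, edgeR adjusted p = 0.998) and −0.012 for *Il6ra* (SE 0.19, edgeR adjusted p = 0.998). These are RNA levels, and the signal itself was not measured. The 2 metallothioneins and *Slc39a14* had values of 0.17, 0.23 and −0.20 in the same fit.

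Among 9 glucocorticoid-responsive genes 1 had an edgeR p below 0.05 (3.73% of all genes, 1.81% with the KO lower), *Per1*, also a clock gene, with 78.3 ± 27.5 CPM in controls and 41.6 ± 13.6 CPM in KO (log2 fold change −0.86, SE 0.29, edgeR adjusted p = 0.998). Of the 9 fitted values 7 lay below 0 (49.5% of all genes), with a median of −0.084. The groups did not overlap for 1 of 9, again *Per1*, beside 10.6% of all genes. The summed level ranged from 844 to 1425 CPM in controls, highest in control replicate 1, and from 989 to 1146 CPM in KO. The glucocorticoid receptor gene *Nr3c1* had a log2 fold change of −0.07 (SE 0.13, edgeR adjusted p = 0.998). Of 9 targets of NRF2, the regulator of the antioxidant response, 0 had an edgeR p below 0.05 and the median was 0.011, with the lowest p for *Gclc* (log2 fold change −0.21, SE 0.22, edgeR adjusted p = 0.998). *Hmox1*, a stress-induced heme-degrading enzyme of the NRF2 list, had 2564 ± 311 CPM in controls and 2685 ± 260 CPM in KO.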

How the data were processed

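Per the labels and the study's methods, stranded paired-end reads were trimmed with Trim Galore 0.6.7, aligned to GRCm38 with STAR 2.7.10a and counted per gene with featureCounts, reverse stranded, on an Ensembl annotation. The authors deposited raw counts, not normalized, in 1 table of 25184 genes, of which 25096 had a symbol here. The study's methods list the counter's settings for paired ends and strand, and do not state how reads shared by several genes were treated. The study's methods give 1 culture per mouse only by implication, so p-values measure the spread between these libraries.

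Here CPM were computed with TMM factors. Genes with a mean DESeq2-normalized count above 5 were kept (15105), and genotype was tested with edgeR 4.0.16 (R 4.3.3; quasi-likelihood test, extraction day as covariate, Benjamini-Hochberg adjustment over all genes tested, threshold 0.05). Log2 fold changes are Hep-*Sucnr1* KO over *Sucnr1* fl/fl. For single values, exact permutation tests (two-sided) were run on log2 CPM (prior count 2). Unlike the edgeR fit, they took no account of extraction day. DESeq2 1.42.0 served as an alternative. Both tests were also run on counts simulated from the fitted model. The outcome is not given here, and such counts cannot show how well the tests suit these libraries. Other alternatives were DESeq2's size factors, library size alone, no filter or edgeR's own filter, no covariate, day 2 alone and each library left out. Levels between genes were compared per kilobase of the principal transcript. Gene positions, transcript lengths and exon overlaps came from a GENCODE annotation of GRCm38, not from the Ensembl annotation used for counting. Promoter windows came from RefSeq (GRCm38.p6) and covered 6 of the 8 genes. Transcripts were aligned with Biopython 1.88, and figures were drawn with matplotlib 3.10.9.

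Genes named were the 8 members, *Sucnr1*, the 5 nearest patterns to *Mt1* and to *Slc39a14*, and in each list the gene with the lowest p and genes named as background. The acute phase genes past an unadjusted p of 0.05 were named after their values were seen. The members and all lists were chosen with earlier results of these data known, and no list is independent evidence.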

Additional observations from a re-analysis of the deposited data

How the results depend on the processing

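Over 14 alternatives, 0 of the 8 genes passed an adjusted p of 0.05 in any of them, with adjusted p between 0.921 and 1.00, and *Slc39a8* and *Slc39a4* kept their direction in all 14. The count of genes with an unadjusted p below 0.05 went from 1 to 0 with library size alone, without extraction day, with day 2 alone and with the library index series added, and it was 0 to 1 with a library left out (0 in each case where control replicate 1 or 2 or KO replicate 3 or 5 was the one omitted). The median log2 fold change was 0.16 with day 2 alone and −0.14 to 0.16 with a library left out, the lowest when KO replicate 4 was omitted and the highest when control replicate 1 was. The number of genes whose groups did not overlap was 1 to 4 with a library left out, 3 without control replicate 3 (22.5% of all genes) and 4 without KO replicate 4 (20.5%), where fewer libraries make overlap rarer for all genes. Of 112 recomputed values of single genes 22 changed sign, mostly those of *Slc30a1* and *Slc30a10*, which lay near 0. These were −0.0058 for *Slc30a1* and −0.011 for *Slc30a10* with DESeq2, −0.0063 and −0.012 with DESeq2's size factors, −0.0096 and −0.014 with library size alone, −0.0043 and −0.010 without a filter, and −0.0085 and −0.022 without extraction day, and −0.0031 for *Slc30a10* with edgeR's own filter. Leaving out a library gave −0.12 to 0.19 for *Slc30a1*, −0.20 to 0.34 for *Slc30a10* and −0.37 to 0.12 for *Slc39a14*, and day 2 alone gave 0.12 for *Slc39a14*. The values of *Slc30a1* and *Slc30a10* were below 0 when control replicate 2 or KO replicate 4 was omitted, and that of *Slc39a14* was above 0 when control replicate 1 or KO replicate 3 was. The index names of the libraries fall into 2 series, one with *Sucnr1* fl/fl replicates 1 and 2 and one with the other 4 libraries, which is partly the same split as genotype. With this series added to the model, a choice made after seeing the data, the log2 fold change was −0.17 for *Mt1*, −0.10 for *Mt2*, 0.052 for *Mtf1* and −0.042 for *Slc30a1*. The correlation of *Mt1* with *Mt2* was 0.860 to 0.990 with a library left out (lowest without *Sucnr1* fl/fl replicate 2) and its adjusted exact permutation p was 0.075 to 0.225 over 5 libraries, and without the 2 farthest libraries it was 0.927 (adjusted exact permutation p = 0.188), where fewer libraries also raise the smallest possible p. That of *Mt1* with *Slc30a1* was −0.554 to 0.5996 and −0.820, and that of *Mt1* with *Slc39a14* was −0.458 to 0.507 and −0.995, and −0.164 with library size alone. The cause of these shifts was not tested. The labels give no pairs of libraries across genotypes, so no paired analysis was run. Extraction day was the covariate of the main model. All 8 genes had at least 451 counts in every library, and for the least counted, *Slc39a8*, counting error is part of the spread between libraries.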
